A study of Mus musculus with 16 samples.

Results

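The genes for the receptor of glucagon-like peptide 1 (Glp1r) and for 8 related proteins were followed across sorted cells of the mouse small intestine. They were the class B peptide receptors Glp1r, Gipr, Glp2r, Sctr, Vipr1, Vipr2, Crhr2 and Calcrl, and Ramp1, the accessory protein that joins Calcrl. They were looked up by gene symbol in a table of 20072 genes, where 8 of the 9 had a row. Sctr, the secretin receptor, had none and is not analysed here. Of the 8 genes, Glp1r, Gipr, Vipr1, Crhr2 and Ramp1 had at least 1 FPKM (fragments per kilobase, relative to the size of the library) in at least 4 libraries and were tested in a fit across all genes. Crhr2 passed this filter through the crypt EC libraries, where it was highest. Vipr2 reached 1 FPKM in 3 libraries, Calcrl in 1 and Glp2r in 0, so these 3 genes missed it.

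RNA came from 4 groups with 4 libraries each: villus EC, crypt EC, villus epi and crypt epi. EC stands for enterochromaffin cells, the serotonin-making endocrine cells of the gut lining, sorted as cells positive for cyan fluorescent protein (CFP). Epi stands for the CFP-negative cells of the epithelium, a mixture of absorptive, secretory, stem and other endocrine cells. All groups came from untreated Tph1-CFP mice aged 8 to 16 weeks, in which the reporter is tied to Tph1, the gene of the serotonin-synthesis enzyme, and each library pooled 5000 sorted cells of the crypt or the villus fraction. The labels count mice and samples together, so p-values here measure the spread between libraries. In such bulk samples, fewer cells of a type and less RNA per cell cannot be told apart.

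Deposited values summed to between 731415 and 1415123 per library, and 11318 to 13071 genes reached 1 FPKM. Depth is unknown, since the values are not read counts. The sort labels held in the marker genes: the 7 EC markers summed to 50210 to 60300 FPKM in villus EC and 55140 to 59600 FPKM in crypt EC, against 525 to 647 FPKM in villus epi and 143 to 184 FPKM in crypt epi. Genes of the mitochondrial genome made up 10.9% to 14.9% of the sum in villus epi replicates 1, 3 and 4. Their share was 5.26% in villus epi replicate 2 and 2.23% to 4.32% in crypt epi and both EC groups. What this means for the comparisons with villus epi was not tested. Libraries of crypt epi and both EC groups had a mean correlation of 0.982 to 0.990 with their own group. Villus epi replicate 2 stood apart, with a mean correlation of 0.846 with its own group across genes, where the other villus epi libraries had 0.937 to 0.940. It held 130 FPKM of Dcn, a fibroblast gene, 24.6 FPKM of Ptprc, a leukocyte gene, and 23.1 FPKM of Pecam1, an endothelial gene, but not every marker on those lists was raised. Dcn alone made up most of the sum of 141 FPKM over the fibroblast and muscle list, Col1a1 had 1.93 FPKM, Cd68 0.704 FPKM and Cdh5 0.118 FPKM, and Tagln, at 2.87 FPKM, was below the other villus epi libraries (10.7 to 19.7 FPKM). Crypt EC replicate 1 differed from its group in several genes described here. Some results that rest on either library are given with and without it, and the others only with it.

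Class B receptors have a large outer domain that grips a peptide hormone, and most of them signal through the stimulatory G protein Gs, which activates adenylyl cyclase and raises cyclic AMP. GLP-1 and GLP-2 are both cut from the glucagon precursor encoded by Gcg, made in intestinal L cells, and GIP comes from K cells. The receptor for GLP-1 is best known from the pancreatic beta cell, where it enhances insulin release, and it is the target of the incretin drugs. Calcrl is unusual in that a receptor activity-modifying protein (RAMP) decides which peptide it binds: calcitonin gene-related peptide with RAMP1, adrenomedullin with RAMP2 or RAMP3.

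Glp1r was an EC gene in these libraries, with its highest level in the villus. It had 391, 338, 362 and 376 FPKM in the 4 villus EC libraries and 3.59, 42.9, 50.0 and 50.9 FPKM in the crypt EC libraries. Villus epi libraries had 0.738, 0.282, 0.0803 and 2.15 FPKM, and crypt epi libraries 0.217, 0.543, 0.455 and 0.604 FPKM. Every villus EC library lay above every crypt EC library, and every EC library above every epi library, while both epi groups overlapped. The means were 367 ± 22.7 FPKM in villus EC, 36.9 ± 22.5 in crypt EC, 0.813 ± 0.934 in villus epi and 0.455 ± 0.170 in crypt epi (SD, n = 4 each). By mean level, Glp1r ranked 266th of 20072 genes in villus EC, 3407th in crypt EC, 13085th in villus epi and 13682nd in crypt epi. The gene lies at chr17:30901817-30940791 of mm10 on the plus strand. It overlaps 2 noncoding genes of the opposite strand that have no row in the table, and the library kit does not mark strand, so reads of these genes and of Glp1r cannot be told apart where exons overlap.

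**Figure D1:**
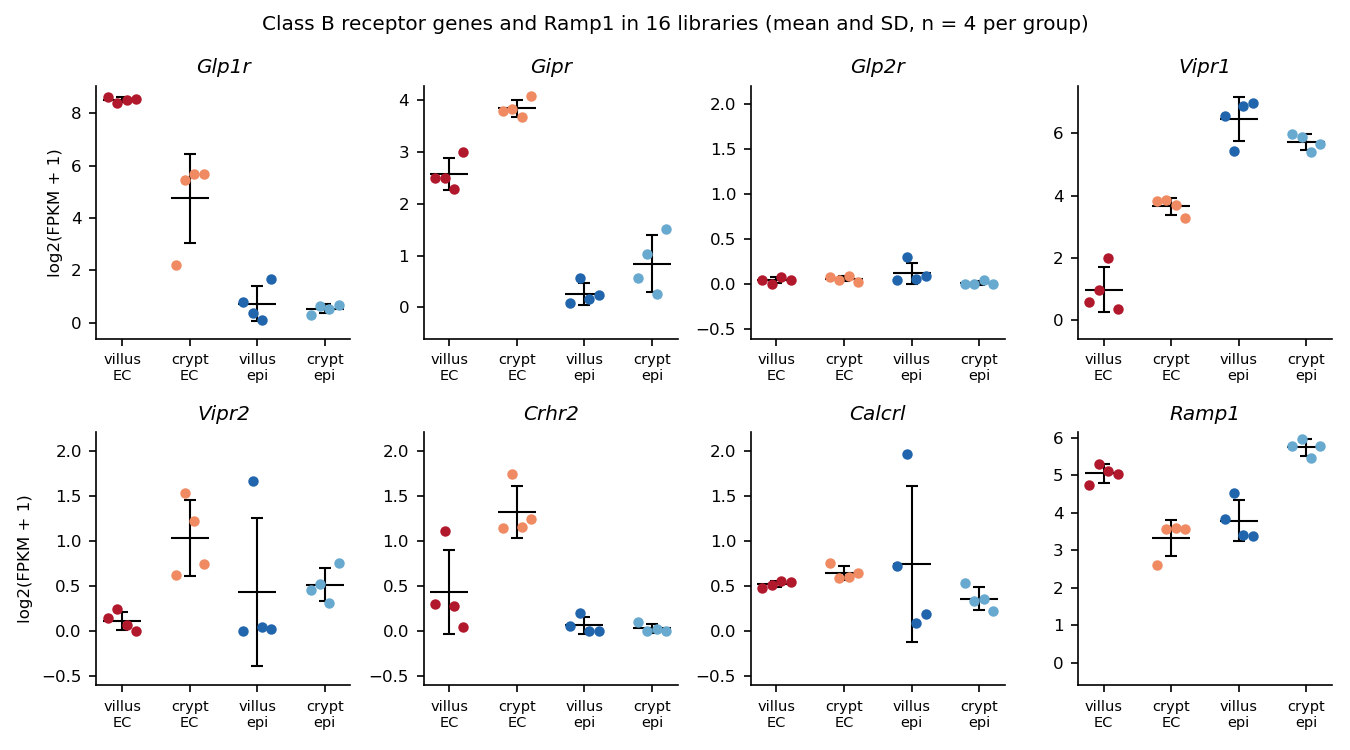
Level of each gene as log2(FPKM + 1) in the 16 libraries, with the group mean and SD (black, n = 4) and replicates 1 to 4 from left to right within a group. Glp1r is highest in villus EC, Gipr and Crhr2 in crypt EC, Vipr1 in both epi groups and Ramp1 in crypt epi. Vipr2 and Calcrl have 1 high villus epi library, and Glp2r is near 0 everywhere.

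Gipr, the receptor for glucose-dependent insulinotropic polypeptide, was also higher in EC but ran the other way along the crypt to villus axis. It had 4.68, 4.65, 3.89 and 7.001 FPKM in villus EC and 12.8, 13.2, 11.8 and 15.8 FPKM in crypt EC. The epi libraries had 0.0653, 0.474, 0.118 and 0.181 FPKM in the villus and 0.474, 1.04, 0.203 and 1.86 FPKM in the crypt. All crypt EC libraries lay above all villus EC libraries, and these above all epi libraries. Gipr lies at chr7:19156061-19166127 on the minus strand.

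Vipr1, which encodes VPAC1, a receptor shared by vasoactive intestinal peptide and PACAP, had the opposite pattern to Glp1r. Its values were 0.479, 0.944, 2.94 and 0.286 FPKM in villus EC and 13.1, 13.4, 11.8 and 8.63 FPKM in crypt EC. They were 93.8, 42.0, 117 and 125 FPKM in villus epi and 62.2, 57.5, 40.9 and 49.6 FPKM in crypt epi. Every EC library lay below every epi library, and villus EC below crypt EC. The 2 epi groups overlapped because villus epi replicate 2, at 42.0 FPKM, was the lowest of its group. Vipr1 lies at chr9:121642716-121672954 on the plus strand.

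Ramp1 was the gene of the set with no low group. It had 25.5, 38.7, 33.5 and 32.0 FPKM in villus EC and 5.11, 10.8, 11.0 and 10.8 FPKM in crypt EC, against 13.3, 22.2, 9.55 and 9.38 FPKM in villus epi and 53.6, 61.9, 42.8 and 53.6 FPKM in crypt epi. Crypt epi was thus highest, villus EC came next without overlap, and villus epi and crypt EC overlapped. Which of their means was higher depended on the scaling of all genes, since with the same total for every library the mean of crypt EC came above that of villus epi. Ramp1 lies at chr1:91179822-91225196 on the plus strand.

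Crhr2, a receptor for the urocortins, was low. It had 0.233, 1.15, 0.210 and 0.0330 FPKM in villus EC and 1.21, 2.34, 1.22 and 1.36 FPKM in crypt EC, while the 8 epi libraries ran from 0 to 0.144 FPKM. Crypt EC libraries lay above all others. Crhr2 lies at chr6:55090049-55133016 on the minus strand.

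The 3 genes under the filter were at the bottom of the range. Vipr2, the gene of VPAC2, had 0.104, 0.179, 0.0499 and 0 FPKM in villus EC and 0.542, 1.88, 1.33 and 0.667 FPKM in crypt EC, with no overlap. Its highest value anywhere, 2.16 FPKM, was in villus epi replicate 2, where the other villus epi libraries had 0 to 0.0328 FPKM, and crypt epi had 0.243 to 0.689 FPKM. Calcrl had 0.386 to 0.468 FPKM in villus EC, 0.498 to 0.680 FPKM in crypt EC and 0.168 to 0.446 FPKM in crypt epi. Villus epi replicate 2 had 2.91 FPKM of Calcrl, against 0.0647 to 0.646 FPKM in the rest of its group. So the only library above 1 FPKM for Calcrl, and the highest for Vipr2, was villus epi replicate 2, the library that stood apart. The part of its raised Dcn, Ptprc and Pecam1 in these values was not tested. Glp2r, the GLP-2 receptor, did not pass 0.230 FPKM in any library. Glp2r overlaps Gas7 and Rcvrn and Vipr2 overlaps Gm20658, all on the opposite strand. Their low values may hold reads of those genes where exons overlap, which was not examined.

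Exact permutation tests of 4 against 4 libraries on log2(FPKM + 1), two-sided and not adjusted, cannot go below p = 0.0286. Vipr2 reached this value for villus EC against crypt EC, with a difference of -0.91. Calcrl reached it for villus EC against crypt EC (-0.12) and for crypt EC against crypt epi (0.28), and Glp2r for villus epi against crypt epi (0.11). The other 8 tests of these 3 genes gave exact permutation p-values of 0.0571 to 0.943. Among the 10 endothelial markers, Pecam1 had at least 13.3 FPKM and Esam at least 9.87 FPKM in every EC library, and the list summed to 47.3 to 62.7 FPKM in crypt EC and 5.65 to 8.60 FPKM in crypt epi. In the villus the list summed to 26.8 to 39.5 FPKM in EC. Villus epi replicate 2 had 44.5 FPKM, and the other villus epi libraries 9.36 to 13.9 FPKM. Tek, an angiopoietin receptor gene, went the other way, with 0.201 to 0.607 FPKM in villus EC and 5.10 to 6.75 FPKM in villus epi (-2.28 ± 0.14). It passed the filter only through villus epi, the group where it is high, so this difference is given as a value only. Cdh5, the vascular cadherin gene, stayed at 0.0332 to 0.0653 FPKM in crypt EC. What these genes have to do with Calcrl was not tested.

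In the crypt, Glp1r and Gipr were higher and Vipr1 and Ramp1 lower in EC than in epi. Crhr2 was called higher as well, but it entered the test only through crypt EC, the group where it is high, so its differences between crypt EC and other groups follow from the filter, and they are given as values outside the counts. With a filter on the mean over all libraries, added after seeing the data, Crhr2 was not tested and the other 4 genes were called. Of all 14089 genes tested, 43.2% passed in this comparison, 23.2% higher and 20.0% lower in crypt EC. Glp1r differed by 4.22 ± 0.60 on the log2(FPKM + 1) scale (± SE, limma, adjusted p = 3.26e-05), Gipr by 3.00 ± 0.24 (adjusted p = 7.5e-08) and Crhr2 by 1.29 ± 0.20 (adjusted p = 6.85e-05). Ramp1 fell by 2.41 ± 0.27 (adjusted p = 2.7e-06) and Vipr1 by 2.07 ± 0.36 (adjusted p = 0.000213). None of the 4 pairs of groups overlapped, where 31.3% of all genes were higher and 28.3% lower without overlap. Without crypt EC replicate 1, the difference of Glp1r was 5.08 and that of Ramp1 -2.17.

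In the villus, 4 of the 5 genes passed, 3 higher and 1 lower in EC, against 62.2% of all genes (40.6% higher, 21.6% lower). The difference of Glp1r was 7.79 ± 0.60 (adjusted p = 1.7e-08) and that of Gipr 2.31 ± 0.24 (adjusted p = 5.76e-07). Ramp1, lower in EC in the crypt, was higher in EC here, by 1.26 ± 0.27 (adjusted p = 0.000748). Vipr1 fell by 5.50 ± 0.36 (adjusted p = 2.52e-09). Crhr2 differed by 0.37 ± 0.20 and did not pass (adjusted p = 0.116, 95% interval -0.05 to 0.79), though it did without villus EC replicate 4 (0.50, adjusted p = 0.0443). The 4 called genes did not overlap between the groups, where 35.1% of all genes were higher and 17.8% lower without overlap. Without villus epi replicate 2 the differences were 7.67 for Glp1r, 2.41 for Gipr, 1.51 for Ramp1, -5.84 for Vipr1 and 0.41 for Crhr2, with the same calls.

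Between the sites, Glp1r and Ramp1 rose and Vipr1 and Gipr fell in villus EC against crypt EC, where 26.5% of all genes passed (10.3% higher, 16.2% lower). Glp1r rose by 3.76 ± 0.60 (adjusted p = 0.000212) and Ramp1 by 1.72 ± 0.27 (adjusted p = 0.00018). Vipr1 fell by 2.69 ± 0.36 (adjusted p = 4.04e-05) and Gipr by 1.27 ± 0.24 (adjusted p = 0.000961). The difference of Crhr2, which the filter admitted through crypt EC, was -0.89 ± 0.20 (adjusted p = 0.00315). The first 4 genes were without overlap, as were 19.0% of all genes in the higher and 26.2% in the lower direction. Without crypt EC replicate 1, Glp1r rose by 2.91 and Ramp1 by 1.48. Gipr was not called with a pseudocount of 0.1 (-1.42, adjusted p = 0.0543), nor Crhr2 with the library numbers of the labels as a block (-0.78, adjusted p = 0.111).

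Among the epi cells only Ramp1 of the 5 genes passed between the sites, with a difference of -1.95 ± 0.27 (adjusted p = 1.51e-05), where 55.0% of all genes passed (19.6% higher, 35.4% lower). Its groups did not overlap, as in 16.6% of all genes in the higher and 31.7% in the lower direction. The other 4 genes did not pass: 0.74 ± 0.36 for Vipr1 (adjusted p = 0.0924), -0.58 ± 0.24 for Gipr (adjusted p = 0.053), 0.20 ± 0.60 for Glp1r (adjusted p = 0.799) and 0.03 ± 0.20 for Crhr2 (adjusted p = 0.906). Whether the first 2 of these were called depended on single libraries. Without villus epi replicate 2 Vipr1 rose by 1.09 (adjusted p = 0.00417) and Gipr fell by 0.68 (adjusted p = 0.0228). Vipr1 also passed without villus EC replicate 3 (0.74, adjusted p = 0.0477), and Gipr without crypt epi replicate 1 (-0.67, adjusted p = 0.0453), crypt epi replicate 3 (-0.77, adjusted p = 0.0127) or villus EC replicate 4 (-0.58, adjusted p = 0.047). Villus EC libraries are not in this comparison, and leaving them out changed the shared estimate of spread but not the difference.

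**Figure D2:**
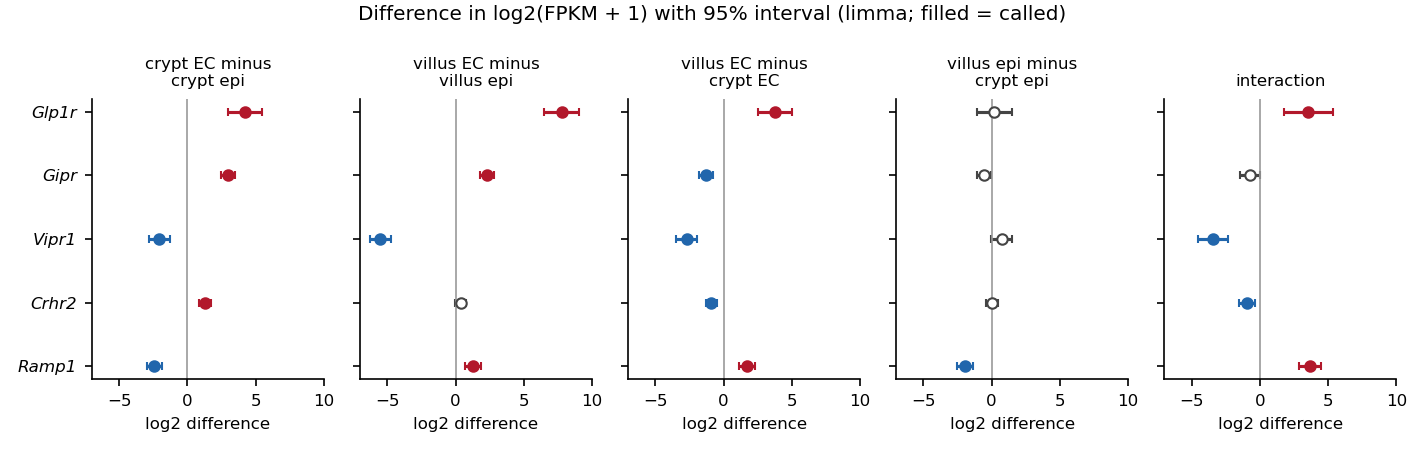
Differences in log2(FPKM + 1) with 95% intervals for the 5 tested genes in 4 comparisons and in the interaction of cell type and site. Filled points passed at an adjusted p below 0.05, red for higher and blue for lower. Ramp1 is lower in EC in the crypt (-2.41) and higher in EC in the villus (1.26), and Glp1r is higher at both sites.

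The interaction of cell type and site, the EC minus epi difference in the villus less that in the crypt, passed for Ramp1, Glp1r and Vipr1. Crhr2 passed as well, but the filter admitted it through crypt EC, so it is given as a value only. Of all genes, 42.9% passed, 26.9% higher and 16.0% lower. Ramp1 had an interaction of 3.67 ± 0.38 (adjusted p = 2.06e-06) and Glp1r of 3.57 ± 0.84 (adjusted p = 0.00309). For Vipr1 it was -3.43 ± 0.50 (adjusted p = 6.2e-05) and for Crhr2 -0.92 ± 0.28 (adjusted p = 0.0147). Gipr had -0.69 ± 0.34 and did not pass (adjusted p = 0.119, 95% interval -1.42 to 0.04), though it did without crypt epi replicate 4 (-0.91, adjusted p = 0.0248). Without crypt EC replicate 1 the interaction of Glp1r was 2.71, and Crhr2 was not called with the library numbers as a block (-0.99, adjusted p = 0.0705).

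FPKM values are per length of transcript, so levels of different genes can be set side by side. Glp1r made up 88.0% to 92.6% of the summed FPKM of the 8 genes in villus EC. In crypt EC it led in 3 libraries with 50.4% to 57.4%, and in replicate 1 Vipr1 led with 35.4%. Vipr1 led in all villus epi libraries, with 59.6% to 92.2%. In crypt epi Ramp1 led in 3 libraries and Vipr1 in replicate 1, the leading gene holding 50.3% to 53.0%. The leading receptor by level was therefore Glp1r in all 4 villus EC and Vipr1 in all 4 villus epi libraries, while Ramp1 and Vipr1 were close to each other in crypt epi.

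How much of a low value comes from cells of the other sort was set beside the marker genes. Glp1r in villus epi was 0.222% of its villus EC mean, while the 7 EC markers in villus epi had 0.329% to 69.4% of theirs, with a median of 0.578%. In the crypt the figure for Glp1r was 1.23%, against 0.0291% to 8.18% for the EC markers, with a median of 0.176%. Vipr1 in villus EC was 1.23% of its villus epi mean, beside a median of 0.754% for 8 enterocyte markers, which ranged from 0.329% to 115%. In crypt EC Vipr1 was 22.4% of its crypt epi mean, where the enterocyte markers had 3.95% to 103% with a median of 7.88%, and the Paneth, goblet and tuft markers 0.740% to 75.9% with a median of 3.87%. Ramp1 in crypt EC was 17.8% of its crypt epi mean. The part of other cells in these low values was not tested.

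Promoter sequence is shown for 4 of the 5 tested genes, Glp1r and Vipr1 as the pair with opposite patterns and Crhr2 and Ramp1 for contrast. Gipr is named only. The sequences are from RefSeq (GRCm38.p6) and cover the bases from 250 to 51 before the RefSeq start, in the direction of transcription: chr17:30901617-30901816 on the plus strand for Glp1r, chr9:121642466-121642665 on the plus strand for Vipr1, chr6:55133067-55133266 on the minus strand for Crhr2 and chr1:91179572-91179771 on the plus strand for Ramp1. Capitals mark GC boxes (GGGCGG) and E-boxes (CANNTG), searched on both strands, and in Glp1r 2 GC boxes share 1 base. RefSeq starts Glp1r at a later base than GENCODE, so the Glp1r window ends directly before the gene start printed above.
Glp1r: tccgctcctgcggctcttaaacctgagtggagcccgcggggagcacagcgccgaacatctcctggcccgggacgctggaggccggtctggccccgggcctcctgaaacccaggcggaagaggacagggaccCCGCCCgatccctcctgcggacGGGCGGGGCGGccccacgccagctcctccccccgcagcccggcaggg
Vipr1: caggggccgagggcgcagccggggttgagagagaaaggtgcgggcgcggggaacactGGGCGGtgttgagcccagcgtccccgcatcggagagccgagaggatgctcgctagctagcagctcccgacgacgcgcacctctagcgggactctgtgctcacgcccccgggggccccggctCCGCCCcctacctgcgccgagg
Crhr2: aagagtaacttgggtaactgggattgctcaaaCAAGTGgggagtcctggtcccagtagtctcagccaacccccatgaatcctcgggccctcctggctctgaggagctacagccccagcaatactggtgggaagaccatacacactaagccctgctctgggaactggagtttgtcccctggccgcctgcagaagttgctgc
Ramp1: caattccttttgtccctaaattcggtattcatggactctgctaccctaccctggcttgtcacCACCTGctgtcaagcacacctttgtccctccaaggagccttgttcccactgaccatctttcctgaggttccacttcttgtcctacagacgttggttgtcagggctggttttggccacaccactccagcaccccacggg
The Glp1r and Vipr1 windows, whose genes were highest in opposite groups, were both rich in G and C: 75.0% with 20 CpG pairs in Glp1r and 73.0% with 23 in Vipr1. They had 3 and 2 GC boxes. Crhr2 had 57.0% G and C with 2 CpG pairs, Ramp1 53.5% with 3, and each had 1 E-box. Over 32851 promoter windows of 200 bases, the median was 51.5% G and C with 4 CpG pairs, 24.6% had a GC box and 59% an E-box. None of the 4 windows had the cyclic AMP response element TGACGTCA (0.828% of windows), its core TGACG (12.7%) or the TATA box letters TATAAA (9.14%). Absence of a match says only that these letters are not in this window.

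The ligands of these receptors were unevenly spread over the same cells. Of 17 ligand genes listed, 12 had a row and 7 were tested. In the crypt 2 were higher and 3 lower in EC (median 0.62, against 0.05 for all genes), and in the villus 3 were higher and 1 lower (0.85, against 0.33 for all genes). Over all genes the shares called were 23.2% higher and 20.0% lower in the crypt and 40.6% higher and 21.6% lower in the villus, so 3 of 7 in the villus is near the background. Sct, which encodes secretin, was by far the most abundant, with 50729 to 103341 FPKM in villus EC, 1280 to 9171 FPKM in crypt EC, 419 to 951 FPKM in villus epi and 110 to 391 FPKM in crypt epi. It differed by 6.89 ± 0.54 in the villus (adjusted p = 2.35e-08), and its receptor gene is the one without a row. Ucn3, which encodes urocortin 3, a ligand of the Crhr2 product, was an EC gene too. It had 255 to 314 FPKM in villus EC and 504 to 835 FPKM in crypt EC, against 1.55 to 2.69 FPKM in villus epi and 0.0569 to 0.272 FPKM in crypt epi. The crypt difference between EC and epi was 9.28 ± 0.17 (adjusted p = 6.72e-15), and that of villus EC against crypt EC was -1.33 ± 0.17 (adjusted p = 2.55e-05).

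Gcg and Gip, the genes behind the ligands of the Glp1r and Gipr products, were highest outside EC. Gcg had 0, 28.6, 9.12 and 0 FPKM in villus EC and 35.2, 0, 0.260 and 0.114 FPKM in crypt EC, against 0.303 to 3.49 FPKM in villus epi and 181 to 371 FPKM in crypt epi. It fell by 6.49 ± 1.16 in crypt EC against crypt epi (adjusted p = 0.000301). Leaving out 1 library gave differences of -7.75 to -6.02. Gip had 24.9 to 75.8 FPKM in villus EC and 2.43 to 26.9 FPKM in crypt EC, against 211 to 1321 FPKM in villus epi and 367 to 1925 FPKM in crypt epi. The 367 FPKM were in crypt epi replicate 3, where the other crypt epi libraries had 1603 to 1925 FPKM. The enterocyte markers of that library summed to 2792 FPKM, against 8641 to 8754 FPKM in the rest of its group. Gip fell in EC at both sites, with differences of -3.49 ± 0.71 in the villus (adjusted p = 0.000534) and -6.82 ± 0.71 in the crypt (adjusted p = 1.44e-06). The genes of VIP and PACAP, ligands of the Vipr1 and Vipr2 products, were close to 0: Vip reached 1.22 FPKM in villus epi replicate 2 and at most 0.308 FPKM elsewhere, and Adcyap1 at most 0.346 FPKM.

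**Figure D3:**
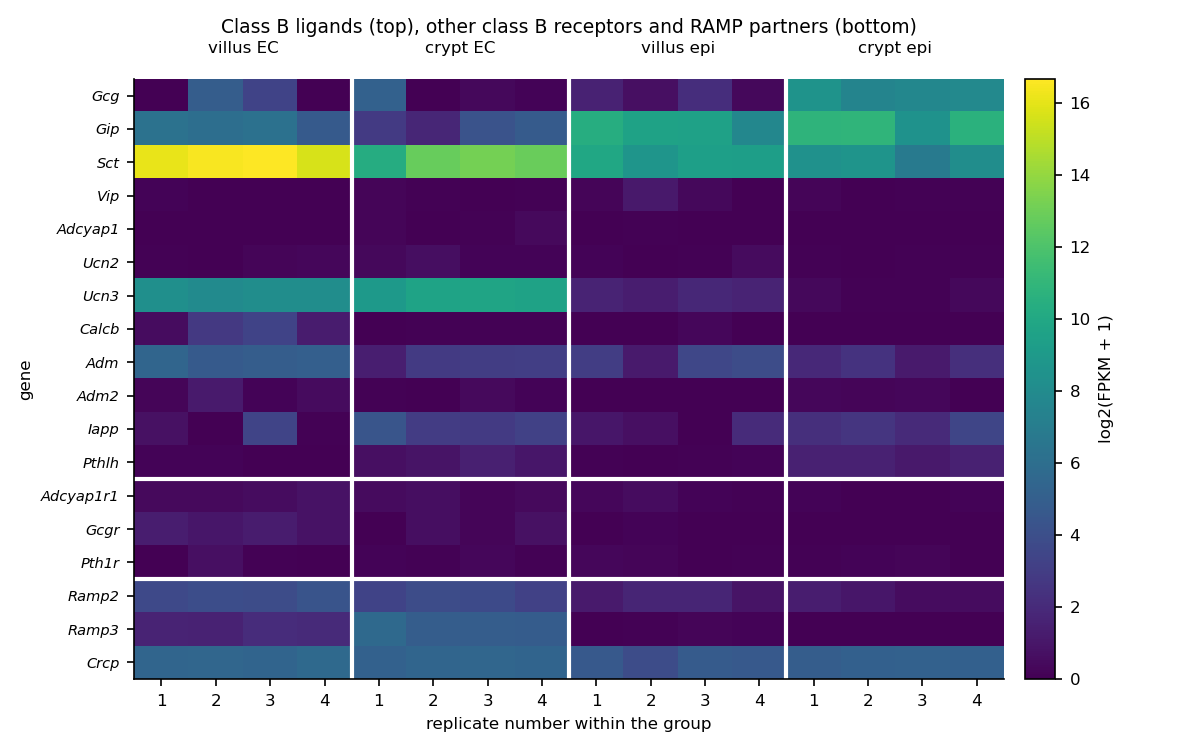
Levels of class B ligand genes, other class B receptor genes and RAMP partners as log2(FPKM + 1), 1 column per library. All genes share the same colour scale. Within their rows, Sct and Ucn3 are brighter in the EC columns, Gip in the epi columns and Gcg in crypt epi. Ramp3 is brighter in crypt EC, where it has 27.7 to 51.3 FPKM, than in the other groups.

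Of the peptides that bind Calcrl with a RAMP, Adm (adrenomedullin) had 25.7 to 41.7 FPKM in villus EC and 1.60 to 7.504 FPKM in crypt EC, against 1.30 to 13.7 FPKM in villus epi and 1.27 to 4.51 FPKM in crypt epi. It rose in villus EC against both crypt EC (2.46 ± 0.51, adjusted p = 0.00195) and villus epi (2.12 ± 0.51, adjusted p = 0.00199). Leaving out 1 library gave 2.06 to 2.63 against crypt EC and 1.55 to 2.44 against villus epi. Calcb, a calcitonin gene-related peptide gene, had 0.435, 5.94, 9.04 and 1.37 FPKM in villus EC and at most 0.208 FPKM elsewhere, and was not tested. Ramp3 was the partner gene that marked crypt EC. It had 2.13, 2.05, 3.27 and 2.88 FPKM in villus EC and 51.3, 28.7, 28.7 and 27.7 FPKM in crypt EC, and no epi library passed 0.182 FPKM. It differed between crypt EC and crypt epi by 5.06 ± 0.19 (adjusted p = 1.48e-11) and fell by 3.26 ± 0.19 in villus EC against crypt EC (adjusted p = 7.14e-09). Ramp1 and Ramp3 therefore ran in opposite directions between villus EC and crypt EC.

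Ramp2 had 11.7 to 18.9 FPKM in villus EC and 8.45 to 13.9 FPKM in crypt EC, against 0.848 to 2.36 FPKM in villus epi and 0.440 to 1.51 FPKM in crypt epi. It was higher in EC at both sites, by 2.56 ± 0.25 in the villus (adjusted p = 2.71e-07) and 2.71 ± 0.25 in the crypt (adjusted p = 3.4e-07). Crcp, the receptor component protein gene, had 13.8 to 49.6 FPKM over all libraries. So each of the 3 RAMP genes passed 18 FPKM in some EC library, while Calcrl did not pass 0.680 FPKM in any EC library. Of 7 other class B receptor genes listed, Adcyap1r1, Gcgr and Pth1r had a row and none passed the filter. Gcgr, the glucagon receptor gene, had 1.49, 1.00, 1.39 and 0.746 FPKM in villus EC, 0.0282 to 0.702 FPKM in crypt EC and at most 0.117 FPKM in epi.

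Of 6 peptidase genes that degrade or process such peptides, 5 were tested. In EC 1 was higher and 2 lower in the crypt, and 1 was higher and 3 lower in the villus. Of all genes, 23.2% were higher and 20.0% lower in the crypt, and 40.6% and 21.6% in the villus. Ece1 was the higher gene at both sites, by 1.75 ± 0.26 in the villus and 1.73 ± 0.26 in the crypt (limma, adjusted p = 2.73e-05 and 6.23e-05). Dpp4, whose product inactivates GLP-1 and GIP, had 50.3 to 55.1 FPKM in villus EC against 342 to 1136 FPKM in villus epi, and the difference was -3.96 ± 0.31 (adjusted p = 2.14e-08). In the crypt it had 160 to 206 FPKM in EC and 92.2 to 158 FPKM in epi and did not pass (0.41 ± 0.31, adjusted p = 0.32). Mme, the neprilysin gene, fell in EC at both sites, with differences of -6.46 ± 0.42 in the villus and -2.96 ± 0.42 in the crypt (adjusted p = 2.48e-09 and 3.21e-05). Between the sites Dpp4 fell in villus EC against crypt EC (-1.74 ± 0.31, limma, adjusted p = 0.000552). Dpp4 and Mme are brush-border genes of the enterocyte. Of 8 enterocyte markers, 7 were lower in EC at each site, where 20.0% of all genes were lower in the crypt and 21.6% in the villus. What these markers have to do with the peptidase genes was not tested.

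The machinery of cyclic AMP was compared as 5 lists. Each count is read against the shares of all genes called in the same comparison, 40.6% higher and 21.6% lower in villus EC against villus epi and 23.2% higher and 20.0% lower in crypt EC against crypt epi, with all-gene medians of 0.33 and 0.05. Of 8 tested genes for Gs and adenylyl cyclases, 4 rose and 1 fell in villus EC (median 0.87) and 3 rose and 1 fell in crypt EC (median 0.09), each against its epi. These counts are near the background shares. Adcy8 and Adcy1, cyclases that calcium and calmodulin stimulate, carried the largest crypt differences. Adcy8 had 31.2 to 35.0 FPKM in villus EC and 14.8 to 26.9 FPKM in crypt EC, against 0.786 to 1.94 FPKM in villus epi and 1.67 to 2.15 FPKM in crypt epi. Its differences were 3.89 ± 0.19 in the villus and 3.01 ± 0.19 in the crypt (adjusted p = 1.03e-10 and 4.52e-09). Adcy1 differed by 2.49 ± 0.25 and 3.55 ± 0.25 (adjusted p = 3.25e-07 and 1.42e-08). Adcy2 had 5.37 to 8.85 FPKM in villus EC and 0.385 to 1.41 FPKM in crypt EC, a difference of 2.14 ± 0.20. The filter admitted Adcy2 through villus EC, where it was highest, so this is given as a value only. The counts of this list take Adcy2 in. Gnas, the gene of the Gs alpha subunit, was the 1 lower gene in crypt EC (-0.45 ± 0.16, adjusted p = 0.0289), against a median of 0.05 for all genes. With all libraries scaled to the same total it was 0.08, where that scaling put the median of all genes at 0.505.

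The 17 genes for protein kinase A, its inhibitors, the EPAC proteins and CREB factors were all tested. In crypt EC 9 were higher and 2 lower than in crypt epi (median 0.60, against 0.05 for all genes), and in villus EC 10 were higher and 2 lower than in villus epi (median 1.18, against 0.33). Prkar1b, a regulatory subunit, had 63.4 to 73.6 FPKM in villus EC and 68.4 to 69.8 FPKM in crypt EC, against 0.199 to 6.38 FPKM in villus epi and 2.76 to 5.39 FPKM in crypt epi. Its differences were 4.37 ± 0.38 and 3.67 ± 0.38 (adjusted p = 7.67e-08 and 1.31e-06). Prkacb, a catalytic subunit, differed by 3.51 ± 0.16 in the villus and 2.12 ± 0.16 in the crypt (adjusted p = 7.39e-11 and 5.15e-08). The 2 EPAC genes moved apart: Rapgef4 (EPAC2) was higher in crypt EC by 2.64 ± 0.20 (adjusted p = 3.47e-08), and Rapgef3 (EPAC1) was lower, with a difference of -2.38 ± 0.25 (adjusted p = 1.71e-06). In the villus Rapgef4 was higher too (2.37 ± 0.20, adjusted p = 4.71e-08), and Rapgef3 did not pass (-0.39 ± 0.25, adjusted p = 0.192). Rapgef4 had 24.4 to 35.1 FPKM in villus EC and 25.8 to 37.9 FPKM in crypt EC, against 4.34 to 5.60 FPKM in villus epi and 2.60 to 6.03 FPKM in crypt epi. Rapgef3 had 0.538 to 1.21 FPKM in crypt EC against 5.92 to 12.9 FPKM in crypt epi.

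Of 16 phosphodiesterase genes, whose products break down cyclic nucleotides, 13 were tested. In EC 9 were higher and 1 lower in the crypt (median 0.65), and 10 were higher and 1 lower in the villus (median 0.88). Pde11a had 76.8 to 86.2 FPKM in villus EC and 38.3 to 68.2 FPKM in crypt EC, against 0.274 to 4.24 FPKM in villus epi and 0.781 to 1.38 FPKM in crypt epi. It differed by 5.17 ± 0.33 in the villus and 4.75 ± 0.33 in the crypt (adjusted p = 2.38e-09 and 1.54e-08). Pde3a was the lower gene at both sites, with differences of -2.46 ± 0.24 in the villus and -1.80 ± 0.24 in the crypt (adjusted p = 2.47e-07 and 1.71e-05).

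Receptor kinases and arrestins, which switch off activated receptors, gave 4 higher and 1 lower of 7 tested in villus EC (median 1.02) and 3 higher and 1 lower in crypt EC (median 0.87). The villus count was 6 and 1 without villus epi replicate 2, where the villus calls over all genes rose from 8770 to 10518. Grk3 was higher in EC at both sites, by 4.16 ± 0.14 in the villus and 2.74 ± 0.14 in the crypt (adjusted p = 2.64e-12 and 3.65e-10). Grk6 was higher in EC in the villus (2.61 ± 0.24, adjusted p = 1.3e-07) and lower in the crypt (-1.31 ± 0.24, adjusted p = 0.000352). Of 10 CREB target genes, 8 rose and 1 fell in villus EC (median 1.24), and 6 rose and 0 fell in crypt EC (median 0.82). Nr4a1, an early-response nuclear receptor gene, had the largest differences of that list, 4.44 ± 0.34 in the villus and 2.11 ± 0.34 in the crypt (adjusted p = 1.55e-08 and 0.000111). With median-ratio scaling 3 CREB targets were higher in the crypt instead of 6. Of all calls there, 44.7% were higher instead of 53.6%. Crem and Pde4d stand in 2 lists each.

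**Figure D4:**
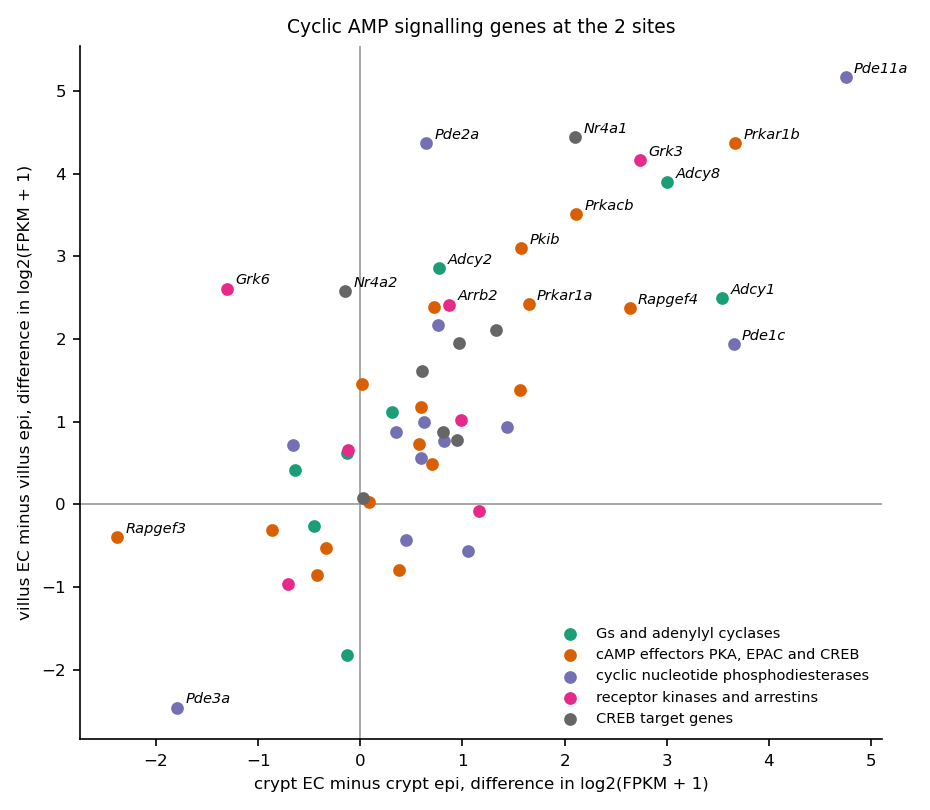
Differences in log2(FPKM + 1) between EC and epi for the tested cyclic AMP genes, crypt on the horizontal and villus on the vertical axis, coloured by list, with Crem and Pde4d drawn once. Pde11a, Prkar1b, Grk3 and Adcy8 lie far to the upper right and Pde3a to the lower left, and Grk6 lies in the upper left quadrant.

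Between villus EC and crypt EC fewer genes of these lists were called than between EC and epi, except for Gs and cyclases, where the count did not fall. Over all genes 26.5% were called, 10.3% higher and 16.2% lower. The counts were 4 higher and 1 lower of 8 for Gs and cyclases, 1 and 2 of 17 for the kinase and CREB list, 1 and 2 of 13 for phosphodiesterases, 2 and 0 of 7 for receptor kinases and arrestins, and 1 and 0 of 10 for CREB targets. The phosphodiesterase count was 5 and 4 without villus epi replicate 2, and that of the kinase and CREB list 3 and 2. Without crypt EC replicate 1 the Gs and cyclase count was 2 and 1, that of receptor kinases and arrestins 1 and 0 and that of CREB targets 0 and 0. The CREB target count was 3 and 0 without villus epi replicate 2. That library is not in this comparison, and leaving it out changed only the shared estimate of spread. Calls over all genes rose from 3736 to 6565 without it, and fell to 2988 without crypt EC replicate 1. The changed list counts are read against these calls.

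Crypt EC replicate 1 was far below the rest of its group in Glp1r. Its 3.59 FPKM was 11.9-fold below the lowest of the other 3 libraries. Of 9504 genes with a mean of at least 5 FPKM in those 3 libraries, 9 lay as far or farther below, Glp1r included, a count that does not take in genes raised in that library. On the log2(FPKM + 1) scale Glp1r was 3.47 below their median, and only Nts, which encodes neurotensin (-3.97), and Hspb1, a small heat shock protein gene (-3.73), were lower. Several other genes that were higher in villus EC than in crypt EC were also low in that library. Sct had 1280 FPKM there against 7219 to 9171 FPKM in the other crypt EC libraries, Pyy (peptide YY) 6.71 against 22.9 to 33.8 FPKM, Adm 1.60 against 6.004 to 7.504 FPKM and Ramp1 5.11 against 10.8 to 11.0 FPKM. Tph1 was 3678 FPKM against 5573 to 6163 FPKM, while the granule protein gene Chga, at 15732 FPKM, lay within the range of the others (15491 to 16846 FPKM). Cck, the cholecystokinin gene, averaged more in villus EC too but was high in replicate 1, with 134 FPKM against 31.9 to 62.5 FPKM. Other hormone genes were raised there too: Gcg had 35.2 FPKM against 0 to 0.260 FPKM, a difference of 5.02 from the median and larger in size than that of Glp1r, Sst (somatostatin) 5.33 against 0 to 0.182 FPKM, Iapp (amylin) 20.4 against 6.03 to 8.17 FPKM and Ghrl (ghrelin) 371 against 124 to 193 FPKM. The genes higher in crypt EC than in villus EC went both ways. Ramp3 had 51.3 FPKM against 27.7 to 28.7 FPKM, and Tac1, the substance P gene, 6331 against 4335 to 4557 FPKM, while Ucn3 had 504 against 784 to 835 FPKM. Gipr (12.8 FPKM) and Vipr1 (13.1 FPKM) lay within the range of the other 3 libraries.

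**Figure D5:**
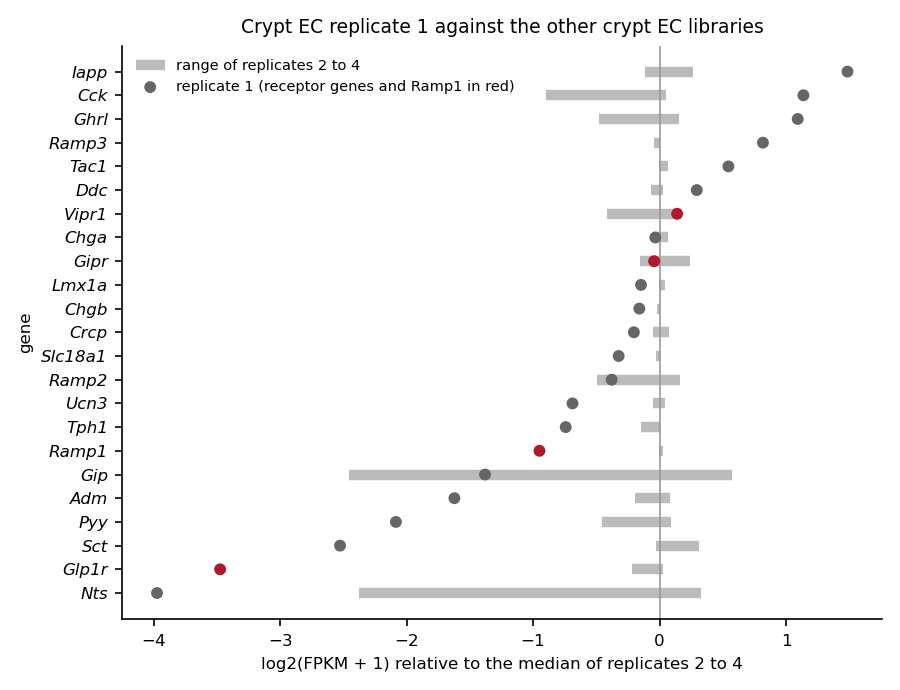
Level in crypt EC replicate 1 (points) relative to the median of replicates 2 to 4, on the log2(FPKM + 1) scale, with their range as grey bars. Genes with a median of at least 5 FPKM in those 3 libraries are shown, from the receptor, ligand, partner and endocrine marker lists. Glp1r (-3.47) and Ramp1 (-0.95) lie below their bars, and Gipr and Vipr1 lie within theirs.

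The genes with the pattern most like Glp1r were found by Pearson's r of log2(FPKM + 1) over the 16 libraries, among 12898 named genes tested. The 8 highest were Chst1 (r = 0.995), Pcp4l1, Galr1, Cyp2f2, Spock2, Cyfip2, Hspb1 and Cntnap2 (r = 0.990). The points share the 4 groups, so these values describe the group pattern together with differences between libraries of a group. Hspb1, for one, was low in crypt EC replicate 1 as Glp1r was, with 4.94 FPKM against a median of 78.0 FPKM in replicates 2 to 4. Galr1, which encodes a galanin receptor, averaged 70.2 FPKM in villus EC and 18.02 FPKM in crypt EC, against 0.611 FPKM in villus epi and 0.464 FPKM in crypt epi. Hspb1 averaged 406 FPKM in villus EC and 59.0 FPKM in crypt EC, against 2.01 FPKM in villus epi and 0.320 FPKM in crypt epi.

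For the other tested genes the 3 most alike were Fbxo10, Hs3st3b1 and Pwwp3b for Gipr (r = 0.981 to 0.987) and Cldn15, Ccl25 and Cryl1 for Vipr1 (r = 0.983 to 0.990). They were Slc12a8, Rab27b and Cracr2b for Ramp1 (r = 0.929 to 0.944) and Abcc12, Rasip1 and Armh1 for Crhr2 (r = 0.919 to 0.925). Cldn15, a claudin of the intestinal tight junction, averaged 7.39 FPKM in villus EC and 60.9 FPKM in crypt EC, against 578 FPKM in villus epi and 437 FPKM in crypt epi. Between the 5 genes themselves, r was -0.94 for Glp1r with Vipr1, 0.82 for Gipr with Crhr2 and 0.01 for Glp1r with Ramp1.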

How the data were processed

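Full-length cDNA libraries made from 5000 sorted cells each were sequenced, and the deposited table holds FPKM values for 20072 genes in 16 libraries, as the authors made them. Per the submitters' processing notes, bcl2fastq 2.20, kallisto and sleuth were used with mouse build mm10. Annotation release, filters and scaling between libraries were not given in the sources used here. Because column totals differ, scaling could shift every difference between groups. No read counts were used here, so no counting interval is given.

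Members and gene lists were chosen with earlier results of these data known. Named genes are all members, all ligands, other class B receptors and RAMP partners with a row, up to 4 called genes per list and comparison with the largest change (a part of which is named), and genes alike in pattern. Genes with at least 1 FPKM in at least 4 libraries were tested (14089, leaving out 5983) on log2(FPKM + 1), which understates changes of low genes. One limma 3.58.1 fit (R 4.3.3) of 4 group means over all 16 libraries, with a trend of variance on mean, gave two-sided p-values, adjusted by the Benjamini-Hochberg method over all genes tested within a comparison. Calls required an adjusted p under 0.05. Members under the filter had exact permutation tests. The method was tested on simulated data. Gene positions are from GENCODE for mm10. Promoters were matched by symbol to RefSeq, with 7 of the 9 genes found. Alternatives were other pseudocounts (0.1 and 5), filters, scalings, blocks, array weights, fits of 2 groups, and leaving out libraries. Plots used Python 3.11.15 with matplotlib 3.10.9.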

Additional observations from a re-analysis of the deposited data

Results flagged for a closer look

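In 32 groups of 4 libraries, 1 library stood apart from the rest by more than Dixon's critical share of the group's range in 5 cases, where chance gives about 5% of groups. Glp1r was low in crypt EC replicate 1 (gap share 0.931, 3.59 FPKM against 42.9 to 50.9 FPKM), as was Ramp1 in the same library (0.966, 5.11 against 10.8 to 11.0 FPKM). Crhr2 was high in crypt EC replicate 2 (0.840, 2.34 against 1.21 to 1.36 FPKM). Vipr2 was high in villus epi replicate 2 (0.972, 2.16 against 0 to 0.0328 FPKM), the library with raised Dcn, Ptprc and Pecam1. Glp2r in crypt epi replicate 3 had a gap share of 1 only because the other 3 libraries were listed at 0 and this one at 0.0311 FPKM.

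The difference between EC and epi was not the same at both sites for Ramp1, Glp1r and Vipr1, by the interaction term of the limma fit. The interaction was 3.67 for Ramp1 (adjusted p = 2.06e-06), 3.57 for Glp1r (adjusted p = 0.00309) and -3.43 for Vipr1 (adjusted p = 6.2e-05). Crhr2 had -0.918 (adjusted p = 0.0147), but the filter admitted it through crypt EC, the group where it is high, so it is given as a value only. Ramp1 was the 1 gene of these whose direction turned, higher in EC in the villus and lower in EC in the crypt.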

How the results depend on the processing

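The scaling of the deposited values moves all genes together. With the same total for every library, the median difference of all genes was 0.51 for crypt EC minus crypt epi instead of 0.05 and 0.82 instead of 0.33 in the villus. The share of calls that were higher became 80.7% instead of 53.6% (crypt EC minus crypt epi), 80.4% instead of 65.3% (villus EC minus villus epi), 24.7% instead of 38.9% (villus EC minus crypt EC) and 24.9% instead of 35.6% (villus epi minus crypt epi). No called difference of the 5 tested genes changed sign under any setting run. Crhr2, near 1 FPKM, moved with the pseudocount, and a filter on the mean over all libraries left it untested.

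Genes called in crypt EC minus crypt epi were 6088, and 9204 with only 2 groups in the fit or 9928 with array weights. In villus EC minus crypt EC they were 3736, and 6670 and 7255 under the same settings, 1841 with the library number block, 5964 without both libraries that stood apart (added after seeing the data) and 2988 to 6565 leaving out 1 library, highest without villus epi replicate 2. Tested genes of the set called in villus epi minus crypt epi were 1, and 2 with a pseudocount of 0.1 or 5, the filter at 5 FPKM, the same total or the replicate block, 3 with array weights or without both libraries, and 1 to 3 leaving out 1 library. Over all genes that comparison had 7755 calls, and 9632 with array weights, 9577 without both libraries and 7113 to 9458 leaving out 1 library. In the other 4 comparisons 3 to 5 of the set were called under every setting. Calls over all genes changed with the settings there too, so these counts do not show that the set is stable. All counts of the set in this section take in Crhr2 where it was tested, a gene that the filter admitted through crypt EC.

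Directions turned only in differences that were not called, apart from 3 called differences of other genes. Gnas in crypt EC minus crypt epi was 0.0837 and Olfm4 in villus EC minus villus epi 0.0208 with the same total, which put the all-gene medians at 0.505 and 0.818, so that both genes stayed below the median, and the interaction of Defa24 was 0.0137 with a pseudocount of 5. In villus epi minus crypt epi, Glp1r was -0.11 to 0.405 leaving out 1 library, and Crhr2 -0.0126 to 0.0554, -0.0365 with array weights and -0.0126 without both libraries. Calcrl was -0.0263 to 0.599 and Vipr2 -0.488 to 0.0649 leaving out 1 library, and Vipr2 0.0134 with a pseudocount of 5. In villus EC minus villus epi, Vipr2 was -0.464 to 0.0893 and Calcrl -0.439 to 0.186 leaving out 1 library, each highest without villus epi replicate 2. The interaction of Gipr was 0.10 with a pseudocount of 0.1. Causes of these changes were not tested.

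Title replicate numbers gave no sign of pairing the libraries, though weak correlations cannot exclude it. Over 24 pairs with the same number, deviations from the group means correlated at -0.268 to 0.170 (median -0.035), with 4 pairs over 0.1. With the replicate block, calls were 5861, 8599, 3475, 7589 and 5835 genes (crypt EC minus crypt epi, villus EC minus villus epi, villus EC minus crypt EC, villus epi minus crypt epi, interaction), with 5, 4, 5, 2 and 4 of the set, Gipr being added in villus epi minus crypt epi (-0.58, adjusted p = 0.0219). Library numbers of the descriptions gave 10 pairs, of which 1 was over 0.1.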
